A study of Mus musculus with 43 samples.

Results

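The genes described here carry a Gpr or Adgr symbol, are mostly orphan or adhesion receptors, and were measured in an RNA-seq study of hypothalamic nuclei in mice that lack the paternal Snord116 copy from birth. Members were all rows of the expression table whose Ensembl identifier mapped to a symbol starting with Gpr and a digit, or with Adgr, with Gpr149 left out. This gave 62 genes of the 10127 in the table, 13 named Adgr and 49 named Gpr, the latter including the pseudogene Gpr137b-ps and 3 multi-pass proteins that are not classical receptors, Gpr107, Gpr137c and Gpr155. The annotation holds 103 such genes, and the other 41 were not analysed here. The rule itself reads symbols and no measured value.

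All mice were male, of the C57/BL6 strain, and carried the paternal deletion B6(Cg)-Snord116tm1.1Uta/J, in the fed group as well as in the fasted group, so no comparison here is with mice that lack the deletion. The deletion was congenital and was not restricted to any cell type. The 6 fed mice had food ad libitum, and the 6 fasted mice had been without food for 24 hours. The labels give no age, and the study describes the animals as adult. The arcuate nucleus (ARC), dorsomedial hypothalamus (DMH), paraventricular nucleus (PVN) and ventromedial hypothalamus (VMH) were cut from stained frozen sections by laser capture, in 3 batches of capture and library preparation. There were 5 fed and 4 fasted libraries for ARC, 6 and 5 for DMH, 5 and 5 for PVN, and 5 and 6 for VMH.

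G protein-coupled receptors are membrane proteins that pass signals from outside the cell to G proteins inside it, and those called orphans have no agreed natural ligand. Several are active without any ligand, among them Gpr3, Gpr6 and Gpr12, which raise cyclic AMP through Gs. Adhesion receptors carry a long extracellular part that is cut near the membrane, and they bind proteins on neighbouring cells or in the matrix. Latrophilins bind teneurins and FLRT proteins, and the BAI receptors (Adgrb1 to Adgrb3) bind C1q-like proteins and Nogo receptors at synapses. In the hypothalamus, Gpr50, Gpr83 and Gpr101 have been studied for roles in feeding, body temperature and growth.

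Values are CPM as the authors deposited them, a gene's reads scaled to a fixed total per library. Library depth, read from the smallest steps between low values, was 1.94 to 8.23 M reads with a median of 4.10 M, so a gene at 1 CPM rested on few reads. Markers of the nuclei followed the labels. Npy, an ARC neuropeptide, averaged 473 CPM in ARC and 3.08 to 5.55 CPM elsewhere. The summed DMH, PVN and VMH markers averaged 484, 837 and 231 CPM in their own nuclei, and at most 31.7, 4.04 and 10.5 CPM in the others.

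The regions upstream of 6 members are shown. These members are Gpr50, Gpr83 and Gpr101, chosen among the genes that differed between the nuclei, and the constitutively active trio Gpr3, Gpr6 and Gpr12. Each region is the 250 bases before the start site in RefSeq (GRCm38.p6), written 5′ to 3′ on the gene's strand. Capitals mark matches on either strand to TGACG (the short CRE), TGACGTCA (the full CRE, which holds the short one on both strands), GGGCGG (the GC box) or CCAAT. Gpr50 lies at chrX:71663417-71663666 (+), Gpr101 at chrX:57503758-57504007 (-), Gpr12 at chr5:146585240-146585489 (-), Gpr83 at chr9:14859960-14860209 (+), Gpr6 at chr10:41072291-41072540 (-) and Gpr3 at chr4:133212537-133212786 (-).
Gpr50: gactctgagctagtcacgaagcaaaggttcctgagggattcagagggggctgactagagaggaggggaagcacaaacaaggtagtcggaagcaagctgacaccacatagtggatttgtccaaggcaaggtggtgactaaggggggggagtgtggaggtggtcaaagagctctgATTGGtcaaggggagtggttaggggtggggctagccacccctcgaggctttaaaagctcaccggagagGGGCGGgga
Gpr101: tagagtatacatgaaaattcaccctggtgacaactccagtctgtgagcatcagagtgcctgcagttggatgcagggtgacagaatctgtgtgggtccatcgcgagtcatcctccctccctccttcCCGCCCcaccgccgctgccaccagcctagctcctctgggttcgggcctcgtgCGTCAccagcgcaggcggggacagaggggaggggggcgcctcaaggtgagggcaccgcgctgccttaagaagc
Gpr12: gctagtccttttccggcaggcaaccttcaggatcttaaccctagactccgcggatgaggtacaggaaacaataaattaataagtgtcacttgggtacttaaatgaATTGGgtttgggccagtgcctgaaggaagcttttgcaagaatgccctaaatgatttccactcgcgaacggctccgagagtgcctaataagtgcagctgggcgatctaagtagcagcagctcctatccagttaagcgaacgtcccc
Gpr83: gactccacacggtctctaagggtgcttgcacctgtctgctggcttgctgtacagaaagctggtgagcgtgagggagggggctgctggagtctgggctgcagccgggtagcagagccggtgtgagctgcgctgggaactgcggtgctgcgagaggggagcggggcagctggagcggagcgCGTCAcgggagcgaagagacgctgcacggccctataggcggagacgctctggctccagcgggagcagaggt
Gpr6: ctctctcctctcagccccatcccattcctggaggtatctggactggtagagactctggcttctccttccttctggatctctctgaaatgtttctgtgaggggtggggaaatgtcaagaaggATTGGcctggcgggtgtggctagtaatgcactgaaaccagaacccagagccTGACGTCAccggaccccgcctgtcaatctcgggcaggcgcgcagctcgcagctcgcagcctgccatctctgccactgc
Gpr3: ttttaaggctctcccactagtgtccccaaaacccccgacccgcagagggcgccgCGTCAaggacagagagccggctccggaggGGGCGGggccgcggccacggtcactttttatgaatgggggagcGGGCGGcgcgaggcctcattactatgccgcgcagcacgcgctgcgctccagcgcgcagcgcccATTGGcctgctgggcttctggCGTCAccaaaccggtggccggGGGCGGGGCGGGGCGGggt

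A window was found for 43 of the 62 members. The GC box stood in 23 of these 43 windows (53.5%) against 32.7% of all 32851 windows of the same length. CCAAT stood in 37.2% of member windows and 33.8% of all windows, and the short CRE in 18.6% and 17.8%. The full CRE stood in 1 member window, that of Gpr6, and in 1.55% of all windows. In Gpr6 it ended at position -71 from the start site. Of the 2 VMH-high genes shown, Gpr12 held CCAAT and no short CRE, while Gpr83 held a short CRE and no CCAAT, so they shared none of these letters. These matches describe the sequence only and were not tested against the expression values.

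The members covered a wide range of levels. Averaged over all 41 libraries, 7 members reached at least 100 CPM, 29 lay between 10 and 100 CPM, 18 between 2 and 10 CPM and 8 under 2 CPM. Values above 0 in every library were found for 39 of the 62. The 62 members summed to 2461 ± 191 CPM in ARC (SD, n = 9), 2370 ± 146 in DMH (n = 11), 2268 ± 110 in PVN (n = 10) and 2520 ± 123 in VMH (n = 11). Genes can be ranked against each other only per length, and the member with the highest level per kb of exon was Gpr165, an X-linked orphan, at 64.4 CPM per kb. It was followed by Gpr101 at 45.3, Adgrg1 at 23.2, Gpr158 at 23.0, Gpr50 at 18.9 and Adgrb1 at 16.2 CPM per kb. The lowest levels per length were those of Adgrg6 at 0.17 and Adgrd1 at 0.17 CPM per kb.

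**Figure D1:**
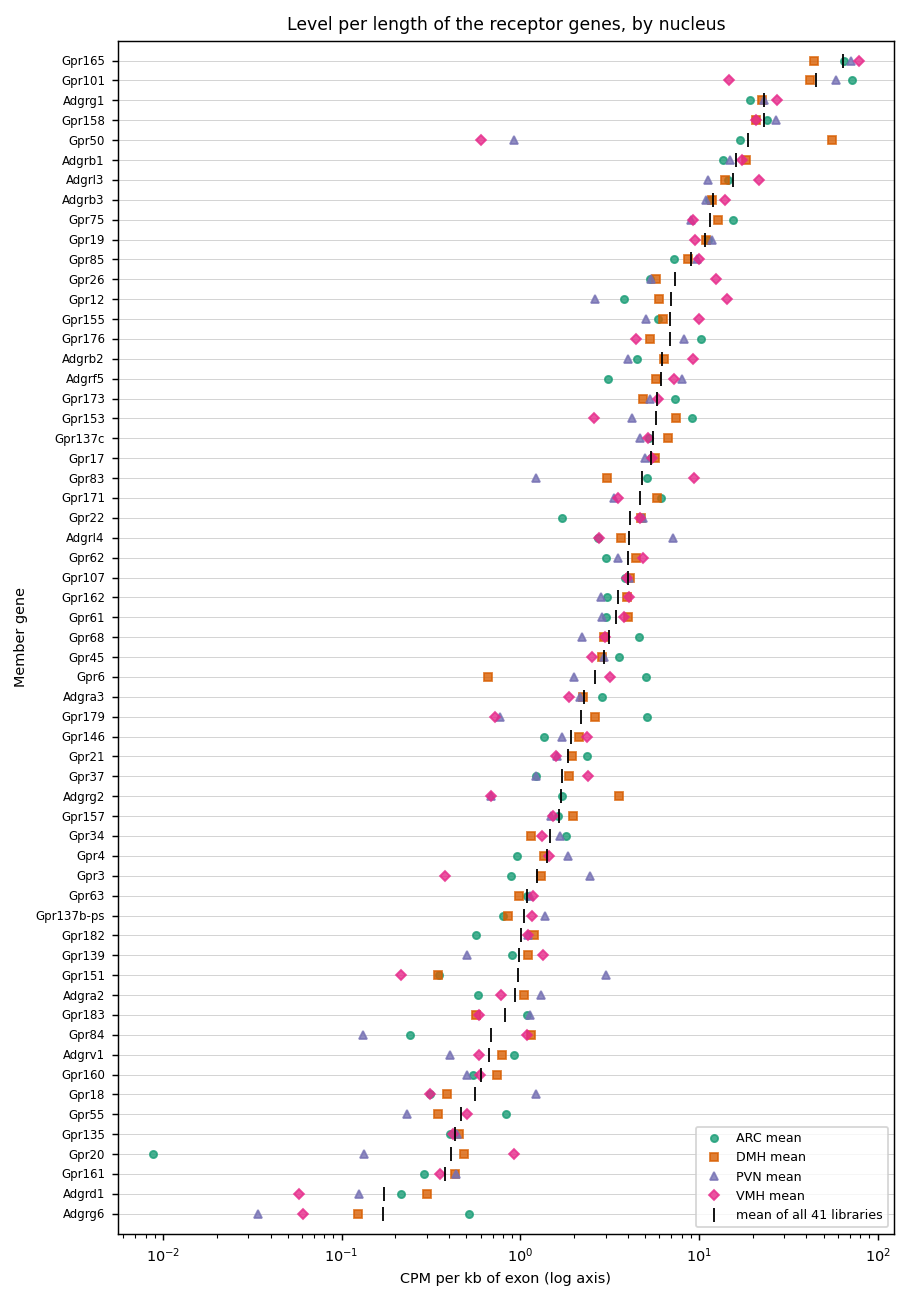
Level of 59 members in CPM per kb of exon (horizontal log axis), with a symbol for the mean of each nucleus and a bar for the mean of all 41 libraries. The highest nucleus mean is under 2 times the lowest in 31 of the 62 members, while Gpr50 spreads from 0.60 CPM per kb in VMH to 55.2 in DMH.

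The first comparison asked in which nucleus each receptor is high, with each nucleus set against the mean of the others within the same mice. Members counted as called where the adjusted p was under 0.1 and the log2 difference was 1 or more in size. By this rule 20 of the 62 members (32.3%) were called in at least 1 nucleus, against 14.7% of all genes tested. In bulk tissue of this kind, a different share of the cells that make a transcript and a different amount per cell cannot be told apart. Without regard to sign, the median log2 difference of ARC was 0.52 over members and 0.23 over all genes. The same medians were 0.27 and 0.21 for DMH, 0.44 and 0.23 for PVN, and 0.41 and 0.28 for VMH.

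The calls fell unevenly over the nuclei, in the same order for members as for all genes. In both directions together, 22.6% of members and 8.01% of all genes were called in VMH, and 17.7% and 6.5% in PVN. These shares were 14.5% and 5.9% in ARC, and 9.68% and 2.93% in DMH. In VMH, 5 members were higher (4.12% of all genes were called higher) and 9 lower (3.89% of all genes). In PVN, 3 were higher (3.09% of all genes) and 8 lower (3.41%). In ARC, 6 were higher (2.75%) and 3 lower (3.15%), and in DMH, 5 were higher (1.89%) and 1 lower (1.05%). As 62 members were tested in each nucleus, 9 calls are 14.5% of them, 8 are 12.9%, 6 are 9.68%, 5 are 8.06%, 3 are 4.84% and 1 is 1.61%. With a pseudocount of 2 in place of 0.5, 3 members were called in DMH (6 here) and 7 in PVN (11 here). Of the 42 members not called in any nucleus, 31 had a highest nucleus mean under 2 times the lowest. The other 11 included Adgrb2 (2.33 times) and the sparse genes Gpr18, Gpr20, Gpr55 and Gpr84, whose means over all libraries were under 2 CPM.

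**Figure D2:**
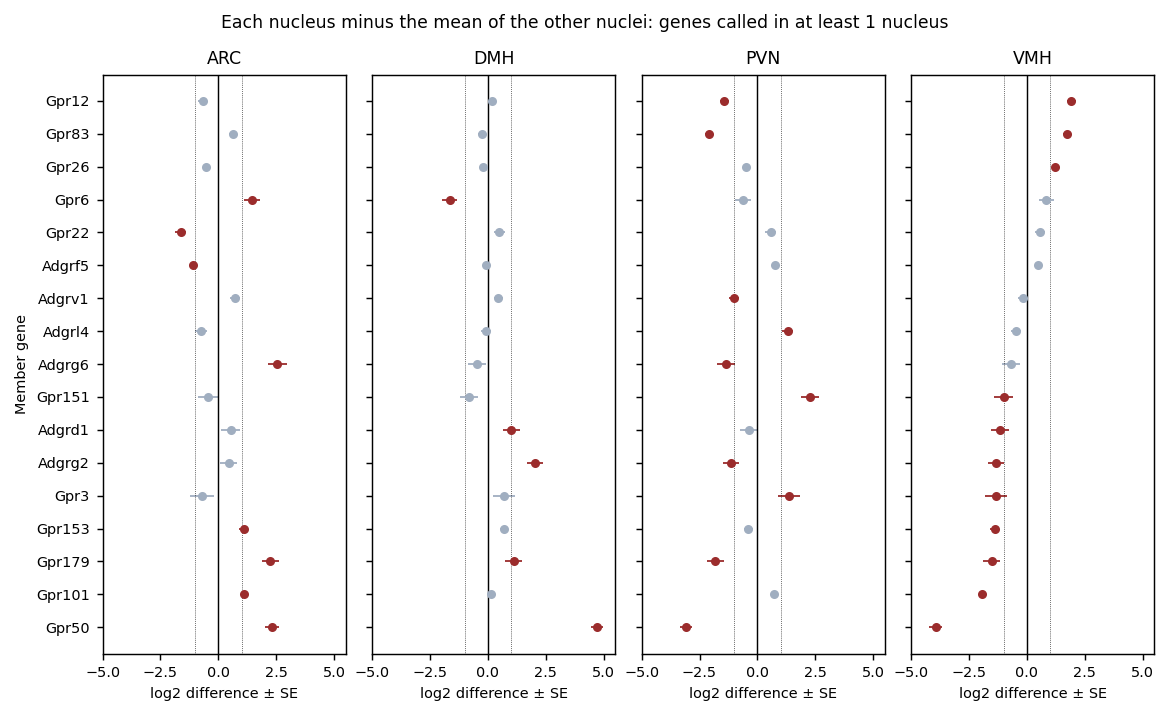
Log2 difference ± SE of each nucleus from the mean of the other nuclei (horizontal axes) for 17 members called in at least 1 nucleus. Dark red points were called, grey points were not, and dotted lines mark a difference of 1 on the log2 scale. Gpr50 has the most extreme values, from -3.94 in VMH to 4.70 in DMH.

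Gpr50 (ENSMUSG00000056380, chrX:71663667-71669257, GRCm38, 2 exon blocks) encodes the melatonin-related receptor, which does not bind melatonin. Its log2 differences between nuclei, with 0.5 CPM added, were the most extreme of all members. In DMH it ran from 105 to 229 CPM with a median of 172, and in ARC from 18.9 to 106 CPM with a median of 45.4. In PVN it ran from 0.81 to 6.61 CPM with a median of 2.42, and in VMH from 0 to 5.48 CPM with a median of 1.53. Every library of DMH and ARC therefore lay above every library of PVN and VMH, and the ranges of DMH and ARC met only at their ends, at fasted mouse 86. The DMH level exceeded the mean of the others by 4.70 ± 0.27 on the log2 scale (SE, adjusted p = 8.39e-17), and was the higher side in 10 of 10 mice that had DMH and another nucleus. ARC exceeded the mean of the others by 2.31 ± 0.28 (adjusted p = 4.09e-08), DMH exceeded ARC (ARC minus DMH was -1.79 ± 0.34, adjusted p = 0.000176), and PVN and VMH did not differ beyond their spread (0.65 ± 0.33, adjusted p = 0.151).

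Tanycytes, the cells that line the floor of the ventricle, are a known site of Gpr50 expression. The 3 measured tanycyte and ependyma markers, Col23a1, Foxj1 and Crym, summed to 41.2 CPM in ARC (range 24.3 to 71.2), 11.6 in DMH (3.85 to 26.4), 9.71 in PVN (4.54 to 16.8) and 15.7 in VMH (5.92 to 24.9). The sum was carried by Col23a1 (34.2 CPM in ARC against 5.57 to 8.06 elsewhere), while Foxj1 had its highest mean in PVN and Crym in VMH. Gpr50 was highest in DMH. The part of these cells in the Gpr50 levels was not tested.

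Gpr101 (ENSMUSG00000036357, chrX:57496668-57503757, 2 exon blocks), a constitutively active receptor whose human copy is duplicated in X-linked acrogigantism, was also lowest in VMH, but high in PVN. It ran from 315 to 431 CPM in ARC (median 402), from 245 to 449 in PVN (median 321), from 126 to 293 in DMH (median 229) and from 53.3 to 110 in VMH (median 79.2). No VMH library reached the lowest library of any other nucleus, a pattern that 0.237% of all genes showed. The VMH level differed from the mean of the others by -1.96 ± 0.06 on the log2 scale (adjusted p = 5.81e-25), and each of the 6 pairs of nuclei differed, in the order ARC, PVN, DMH, VMH. The closest pair, ARC and PVN, differed by 0.30 ± 0.08 (adjusted p = 0.00975).

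**Figure D3:**
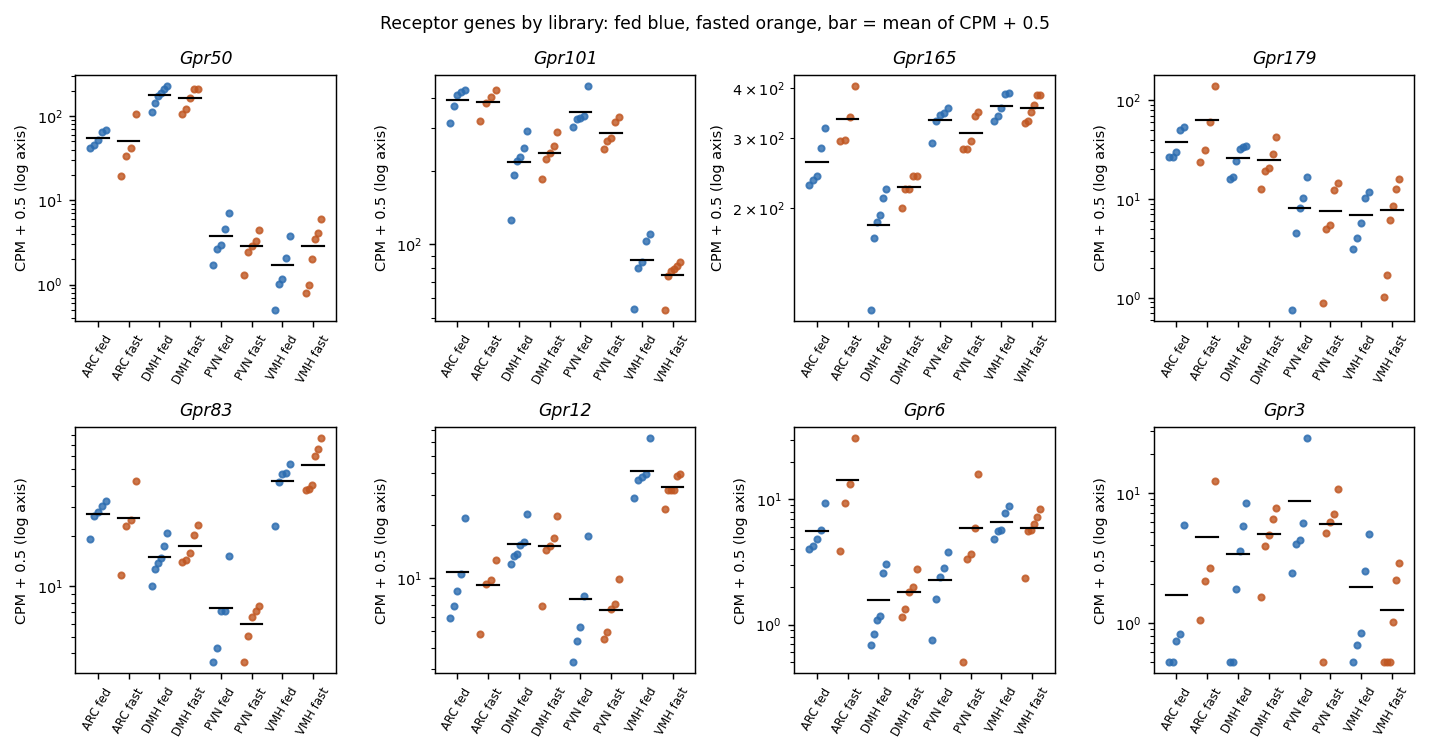
CPM + 0.5 on log axes for 8 members in every library, by nucleus and nutritional state. Each point is 1 library, blue for fed and orange for fasted, and each bar is the group mean. Gpr50 separates ARC and DMH from PVN and VMH, Gpr101 is lowest in VMH, and Gpr12 and Gpr83 have their highest means in VMH.

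A set of members was highest in VMH. Gpr12 (chr5:146582398-146585239, 2 exon blocks) did not overlap between VMH and the other nuclei. It ran from 24.3 to 62.8 CPM in VMH (median 35.7), 6.42 to 22.8 in DMH (median 14.7), 4.26 to 21.5 in ARC (median 8.74) and 2.8 to 16.8 in PVN (median 5.43). The VMH difference was 1.92 ± 0.18 (adjusted p = 1.86e-11). DMH exceeded ARC (adjusted p = 0.0441), and ARC and PVN did not differ beyond their spread (0.55 ± 0.22, adjusted p = 0.104). In the other direction, Gpr12 was called lower in PVN (-1.42 ± 0.18, adjusted p = 4.28e-08).

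Gpr83 (chr9:14860210-14870789, 4 exon blocks) is a receptor for which the peptide PEN, cut from the product of Pcsk1n, has been proposed as a ligand. It ran from 22.6 to 76.6 CPM in VMH (median 46.2), 11.3 to 42.4 in ARC (median 25.7), 9.56 to 22.6 in DMH (median 14.2) and 3.03 to 14.7 in PVN (median 6.34). All 6 pairs of nuclei differed, the VMH difference being 1.74 ± 0.17 (adjusted p = 1.09e-10) and that of PVN -2.10 ± 0.17 (adjusted p = 1.45e-12).

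Gpr26, a constitutively active receptor named after its values were seen, also stood clear of the other nuclei in VMH. It ran from 92.5 to 192 CPM there (median 145), and no library of ARC, DMH or PVN exceeded 87.3 CPM. The VMH difference was 1.21 ± 0.10 (adjusted p = 1.53e-12). Together with Gpr12 and Adgrl3 it made up the 3 members whose VMH libraries were all above all others, a pattern found in 0.771% of all genes. Of the 4 measured markers of neurons, Slc17a6 of glutamatergic cells was called higher in VMH (581 CPM against 118 to 358 elsewhere) and Slc32a1 of GABAergic cells lower (5.38 against 15.5 to 132). Syt1 averaged 622 CPM in VMH and 617 in DMH, and Tubb3 was highest in PVN. Of the 8 measured markers of oligodendrocytes, 6 were called higher in VMH, and their sum averaged 1378 CPM there against 473 to 839 elsewhere. Their part in the VMH levels was not tested.

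The constitutively active trio had their highest means in different nuclei, Gpr12 in VMH, Gpr6 (chr10:41069977-41072285, 2 exon blocks) in ARC and Gpr3 in PVN. Gpr6 ran from 3.38 to 30.4 CPM in ARC (median 5.25), 1.84 to 8.43 in VMH (median 5.18), 0 to 15.5 in PVN (median 2.58) and 0.19 to 2.55 in DMH (median 0.83). It was called higher in ARC (1.44 ± 0.35, adjusted p = 0.00213) and lower in DMH (-1.66 ± 0.33, adjusted p = 0.000459), and ARC and VMH did not differ beyond their spread (adjusted p = 0.480). Its VMH difference was also positive (0.84 ± 0.33, adjusted p = 0.0562), under the required size, and VMH was the higher side in 9 of 10 mice. Gpr3 (chr4:133209340-133212536, 3 exon blocks) had its highest mean in PVN, at 6.69 ± 7.24 CPM (SD, n = 10), and its lowest in VMH, at 1.04 ± 1.42 (n = 11).

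The PVN call of Gpr3 (1.36 ± 0.48, adjusted p = 0.044) leaned on PVN-D-Fed-111 (a library is named by nucleus, state and mouse), which held 25.8 CPM while the others ran from 0 to 10.2 CPM. Without that library the difference was 1.03 (adjusted p = 0.166). The VMH call of Gpr3 (-1.35 ± 0.48, adjusted p = 0.0349) was lost without VMH-D-Fast-86 (adjusted p = 0.143) or VMH-D-Fed-308 (adjusted p = 0.116). With each library left out in turn, the adjusted p of the PVN call was 0.0099 to 0.166 and that of the VMH call 0.0104 to 0.143. Gpr3 shares 204 bases of exon with Cd164l2 on the opposite strand, and the use of strand in counting is not given in the sources used here, so reads of the overlap cannot be told apart.

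The class C orphans, which resemble metabotropic glutamate receptors in their membrane part, differed from each other. Gpr179 (chr11:97332109-97352077, 11 exon blocks), known from retinal bipolar cells, ran from 23.1 to 140 CPM in ARC (median 30.6), 12.1 to 41.9 in DMH (median 23.6), 0.25 to 16.0 in PVN (median 6.31) and 0.52 to 15.3 in VMH (median 5.70). The ARC and PVN ranges and the ARC and VMH ranges did not overlap. ARC was called higher by 2.24 ± 0.38 (adjusted p = 1.90e-05) and DMH by 1.11 ± 0.36 (adjusted p = 0.0393), while PVN (-1.82 ± 0.36) and VMH (-1.53 ± 0.36) were called lower. The DMH call was lost without any of 4 libraries, DMH-D-Fast-305 (adjusted p = 0.109), DMH-D-Fast-311 (adjusted p = 0.137), DMH-D-Fed-125 (adjusted p = 0.113) or PVN-D-Fed-125 (difference 0.98).

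Gpr158 (chr2:21367542-21830547, 11 exon blocks), which binds the regulator protein RGS7 at the membrane, was even across nuclei by comparison. Its means were 222 ± 23.9 CPM in PVN (SD, n = 10), 197 ± 33.1 in ARC (n = 9), 170 ± 24.4 in DMH (n = 11) and 169 ± 24.6 in VMH (n = 11), and no nucleus was called. PVN exceeded DMH (adjusted p = 0.00246) and VMH (adjusted p = 0.000282), ARC exceeded VMH (adjusted p = 0.0550), and DMH and VMH did not differ beyond their spread. Its exons share 601 bases with Gm13327 on the opposite strand.

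Gpr165 (chrX:96713441-96719388, 4 exon blocks), the member with the highest level per length, had means of 358 ± 24.7 CPM in VMH (SD, n = 11), 321 ± 30.6 in PVN (n = 10), 293 ± 57.1 in ARC (n = 9) and 201 ± 38.0 in DMH (n = 11). DMH was below each of the others in the pairwise tests (adjusted p from 1.15e-10 to 6.08e-06), but its difference from their mean, -0.63 ± 0.06, was under the size needed for a call. VMH and PVN did not differ beyond their spread (adjusted p = 0.140), nor did PVN and ARC (adjusted p = 0.388). Gpr22 (chr12:31706867-31713947, 3 exon blocks), an orphan also known from the heart, was low in ARC only among these nuclei. It ran from 0.85 to 12.1 CPM in ARC (median 8.44) against medians of 20.3 to 24.2 CPM elsewhere, a difference of -1.62 ± 0.24 (adjusted p = 1.94e-06).

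Among the adhesion receptors, both latrophilin group members differed between nuclei in different ways. Adgrl3 (chr5:81020138-81825133, 35 exon blocks), latrophilin 3, ran from 343 to 463 CPM in VMH (median 380), 204 to 285 in ARC (median 257), 199 to 290 in DMH (median 244) and 126.7 to 240 in PVN (median 203). Every VMH library was above every other library. The VMH difference was 0.74 ± 0.06 (adjusted p = 1.06e-13), under the size needed for a call, and ARC and DMH did not differ beyond their spread (adjusted p = 0.646). Its exons share 1582 bases with Gm16054 on the opposite strand.

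Adgrl4 (chr3:151437887-151545086, 18 exon blocks), a receptor of endothelial cells, was highest in PVN. It ran from 21 to 44.6 CPM there (median 33.3) against medians of 12.8 in ARC, 16.4 in DMH and 12.7 in VMH, a difference of 1.31 ± 0.23 (adjusted p = 3.99e-05). Adgrf5, another adhesion receptor of endothelium, was named after its values were seen. It had means of 72.7 ± 8.49 CPM in PVN (SD, n = 10), 65.0 ± 14.4 in VMH (n = 11), 51.5 ± 16.2 in DMH (n = 11) and 27.8 ± 8.04 in ARC (n = 9), and was called lower in ARC (-1.11 ± 0.12, adjusted p = 1.28e-09).

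The 5 measured endothelial markers, Cldn5, Flt1, Cdh5, Slco1a4 and Ly6c1, differed between the nuclei and were above 0 in all libraries. Their sum ran from 191 to 320 CPM in PVN, 97.5 to 188 in DMH, 85.1 to 141 in VMH and 58.7 to 94.4 in ARC. Both Adgrl4 and this sum were highest in PVN, and both Adgrf5 and this sum were lowest in ARC. Adgrf5 was lower in DMH than in VMH (-0.41 ± 0.14, adjusted p = 0.0300), and the mean marker sum was 127.2 CPM in DMH and 106.1 CPM in VMH. The higher DMH sum was carried by Flt1 and Slco1a4. None of the 5 markers was called between DMH and VMH, and their median log2 difference, DMH minus VMH, was -0.17. The part of endothelial cells in the levels of Adgrl4 and Adgrf5 was not tested.

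Adgrg6 (chr10:14402583-14545659, 27 exon blocks), which Schwann cells need for myelination, was an ARC gene among these nuclei. It ran from 3.40 to 11.2 CPM in ARC (median 5.64), from 0 to 5.77 in DMH (median 0.53), from 0 to 1.67 in PVN (median 0.24) and from 0 to 2.00 in VMH (median 0.60). ARC exceeded the mean of the others by 2.54 ± 0.41 (adjusted p = 7.56e-06), and DMH, PVN and VMH did not differ from each other beyond their spread. It was listed at 0 in 10 of the 41 libraries, so this difference depends on the added 0.5 CPM, and it was 1.51 with 2 CPM added and 3.61 with 0.1 CPM added. Adgrg2 (chrX:160390690-160498070, 30 exon blocks), known from the male excurrent ducts, averaged 18.8 ± 10.8 CPM in DMH (SD, n = 11) and 9.06 ± 6.44 in ARC (n = 9), and 3.62 CPM in both PVN and VMH. Its DMH difference was 2.03 ± 0.35 (adjusted p = 5.32e-05), and its exons share 137 bases with Gm15241 on the opposite strand.

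The BAI receptors and Adgrg1 were more even. Adgrb3 (chr1:25067476-25829707, 33 exon blocks) averaged 258 ± 38.4 CPM in VMH (SD, n = 11) and 202 to 220 CPM elsewhere, with VMH above each other nucleus in the pairwise tests (adjusted p from 0.000847 to 0.0775). Adgrb2 (chr4:129984870-130022633, 28 exon blocks) averaged 60.2 ± 21.6 in VMH, 41.6 ± 14.0 in DMH, 29.3 ± 18.6 in ARC and 25.9 ± 10.6 in PVN, and its VMH difference of 0.91 ± 0.13 (adjusted p = 7.35e-07) was under the size needed for a call. Adgrb1 (chr15:74516195-74589465, 34 exon blocks) averaged 133 ± 40.2 CPM in DMH, above ARC (adjusted p = 0.00926) and PVN (adjusted p = 0.0125) and not above VMH beyond the spread (adjusted p = 0.165). Adgrg1 (chr8:94974751-95014217, 22 exon blocks), a receptor of neural and oligodendrocyte precursors, averaged 148 ± 26.9 CPM in VMH, above ARC (adjusted p = 0.000648), DMH (adjusted p = 0.0605) and PVN (adjusted p = 0.0539).

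Some members differed between batches, at shares near those of all genes. Centred on the nucleus mean, the 4 mice of batch 1 were all above the 8 mice of batches 2 and 3 for 4 members, Adgrb2, Adgrg1, Gpr107 and Gpr162, and all below them for 3, Gpr137c, Gpr155 and Gpr26. Over all genes these shares were 5.22% and 6.02%, and 6.45% and 4.84% over the members. Adgrb1 had medians of 179 CPM in batch 1 (range 110 to 247), 106 in batch 2 (65.6 to 153) and 82.2 in batch 3 (65.4 to 163). Every batch held fed and fasted libraries of each nucleus, and the mouse block of the comparison between nuclei takes up batch.

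The PVN was also the nucleus of Gpr151 (chr18:42577881-42579652), an orphan known from habenular neurons. It ran from 0.81 to 21.5 CPM there (median 3.14), and its medians in ARC, DMH and VMH were 0.56, 0.19 and 0 CPM. The PVN difference was 2.28 ± 0.39 (adjusted p = 2.38e-05). The highest PVN library was again PVN-D-Fed-111, at 21.5 CPM, and the other fed PVN libraries ran from 1.27 to 4.54 CPM. The VMH call of Gpr151 (-1.01 ± 0.39, adjusted p = 0.0536) sat at the edge of the required size and was lost when any of 20 libraries was left out in turn.

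A further 3 called members were named after their values were seen. Gpr153 (chr4:152274232-152285337, 6 exon blocks), an orphan with little known of its ligand, averaged 35.9 ± 7.92 CPM in ARC (SD, n = 9), 29.2 ± 10.2 in DMH (n = 11), 16.4 ± 4.04 in PVN (n = 10) and 10.1 ± 3.8 in VMH (n = 11). It was called higher in ARC (1.10 ± 0.19, adjusted p = 2.34e-05) and lower in VMH (-1.40 ± 0.18, adjusted p = 4.74e-08), and ARC and DMH did not differ beyond their spread (adjusted p = 0.448). Adgrv1, the very large adhesion receptor of hair cells and photoreceptors, had its highest median in ARC, at 20.7 CPM, and its lowest in PVN, at 10.4 CPM, and its PVN call sat at the edge of the required size (-1.004 ± 0.20, adjusted p = 0.000272). Adgrd1 was near the limit of detection, with medians of 2.08 CPM in DMH and 0 in VMH, where 6 of 11 libraries were listed at 0.

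Some partners of these receptors also differed between nuclei. Of the 19 measured ligands and binding partners, 3 were called higher and 3 lower in VMH (4.12% and 3.89% of all genes), 4 and 2 in PVN (3.09% and 3.41%), 3 and 1 in DMH (1.89% and 1.05%), and 1 and 3 in ARC (2.75% and 3.15%). The teneurin Tenm2, a latrophilin ligand, averaged 644 CPM in VMH against 111.5 to 224 CPM elsewhere (2.01 ± 0.09, adjusted p = 5.42e-21), and Flrt2 was also higher in VMH (1.21 ± 0.10, adjusted p = 3.88e-13). Flrt3 was lower in VMH (-2.0 ± 0.15, adjusted p = 8.83e-14), at 23.9 CPM against 82.3 to 110.6 CPM elsewhere. C1ql3, a C1q-like ligand of the BAI receptors, was higher in DMH (2.57 ± 0.34, adjusted p = 6.51e-07), and the Nogo receptors Rtn4r (1.99 ± 0.30) and Rtn4rl1 (1.58 ± 0.20) were higher in PVN. None of the 7 measured G protein alpha subunits and none of the 4 measured arrestins and receptor kinases was called in any nucleus by the same rule. Adcy7, the measured adenylyl cyclase, was called higher in PVN (1.04 ± 0.22, adjusted p = 0.000356).

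The next comparison asked which receptors changed with a 24-hour fast within each nucleus. At an adjusted p under 0.1, 0 members were called in ARC (58 tested, 0.176% of all genes called), DMH (60 tested, 0.0103%), PVN (56 tested, 0.367%) and VMH (53 tested, 0.0208%). The tests were made with limma. At an unadjusted p under 0.05 there were 9 members in ARC (15.5% of members tested, 8.1% of all genes) and 2 in DMH (3.33% and 6.62%). There were 5 in PVN (8.93% and 9.97%) and 3 in VMH (5.66% and 6.98%), so the member share exceeded that of all genes in ARC only. On the log2 scale, the median fasting difference in ARC was 0.03 over members and 0.02 over all genes. It was 0.07 and 0.01 for DMH, 0.03 and 0.01 for PVN, and -0.02 and -5.2e-05 for VMH.

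**Figure D4:**
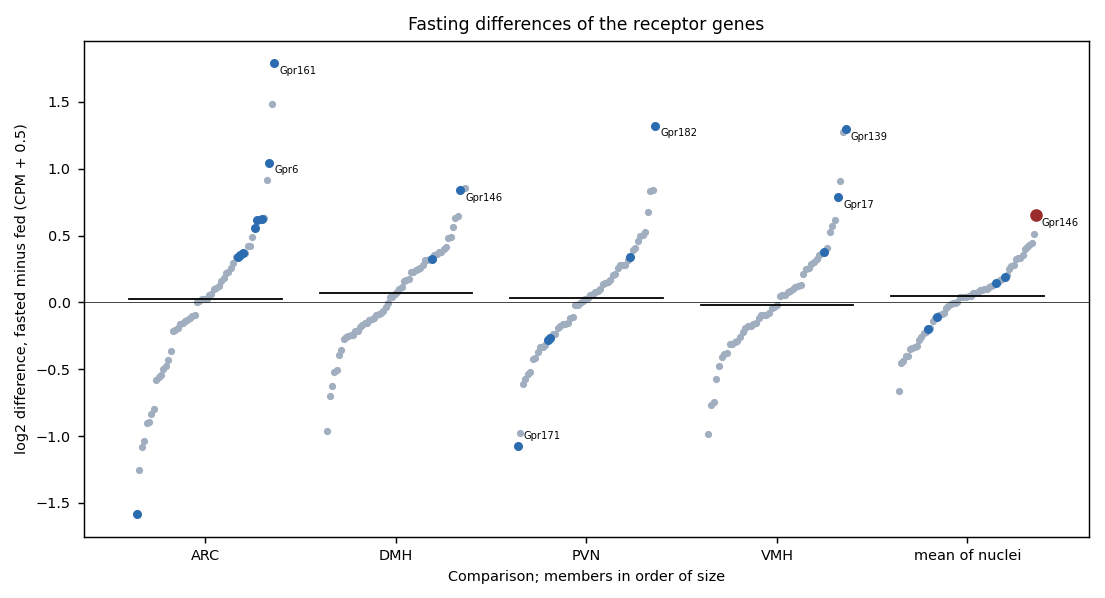
Log2 difference, fasted minus fed, of each member tested (vertical axis) in each nucleus and averaged over nuclei, with members in order of size. Blue points had an unadjusted p under 0.05, the dark red point passed an adjusted p of 0.1, bars mark medians, and names are given for the call and for most blue points with a difference of 0.7 or more in size. Medians lie near 0, and Gpr146 in the mean over nuclei is the single call.

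Averaged over the nuclei, 1 of the 62 members passed the threshold, Gpr146, which was higher after fasting (3.18% of all genes were called). Gpr146 (ENSMUSG00000044197, chr5:139377697-139396415, 4 exon blocks) is an orphan studied for its part in liver lipoprotein output. In ARC it was at 4.91, 6.16, 6.51, 7.17 and 10.2 CPM in the fed libraries and at 5.63, 6.77, 17.0 and 18.8 CPM in the fasted ones. In DMH the fed libraries ran from 6.96 to 17.4 CPM (median 9.46), and the fasted ones held 8.29, 10.8, 19.5, 28.9 and 29.4 CPM. Fed and fasted libraries overlapped in both nuclei, with the fasted values spread more widely.

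In PVN, Gpr146 was at 4.32, 6.66, 7.57, 11.7 and 14.4 CPM in fed and at 7.96, 10.9, 13.5, 15.3 and 24.4 CPM in fasted libraries. In VMH the fed libraries held 7.24, 9.32, 12, 14.5 and 16.2 CPM, and the fasted ones ran from 10.3 to 41.8 CPM (median 15.1). The groups overlapped here too. The differences of ARC (0.62 ± 0.45), DMH (0.84 ± 0.35), PVN (0.68 ± 0.35) and VMH (0.57 ± 0.38) were above 0 in all 4 nuclei, and its mean was 0.66 ± 0.19 (SE, adjusted p = 0.0562).

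The Gpr146 call did not hold in every fit. It was lost without the batch covariate (0.65, adjusted p = 0.422), with 1 value per mouse (0.63, adjusted p = 0.521), without ARC of fasted mouse 100 (0.58, adjusted p = 0.127) and without DMH of the same mouse (0.60, adjusted p = 0.101). Its adjusted p ran from 0.0524 to 0.521 over the alternative settings and from 0.0281 to 0.127 with a library left out. Within batches, the fasted mean was above the fed mean in 11 of the 12 combinations of nucleus and batch, the exception being ARC in batch 3 (-0.37). Some of these combinations held 1 library per state, and the same mice recurred across the nuclei, so the 12 are not independent. Gpr146 was tested for a difference of the response between nuclei and gave no call (F = 0.02, adjusted p = 0.999). In the mean over nuclei, 2 of the 6 measured astrocyte markers were also called higher after fasting, beside 1.52% of all genes. They were Agt (0.49 ± 0.10, adjusted p = 0.00452) and Gjb6 (0.42 ± 0.12, adjusted p = 0.0423). The other astrocyte markers were not called and ran from -0.08 (Gja1) to 0.30 (Aldh1l1). Of the markers of the other cell types, 1 of 8 for oligodendrocytes and 1 of 5 for endothelial cells were called lower, beside 1.66% of all genes. The marker calls were not refitted with 1 value per mouse. The summed astrocyte markers averaged 390 CPM fed and 464 fasted in DMH, 344 and 413 in PVN, 324 and 415 in VMH, and 240.1 and 233 in ARC. Their part in the fasting values of Gpr146 and of the partner genes was not tested.

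**Figure D5:**
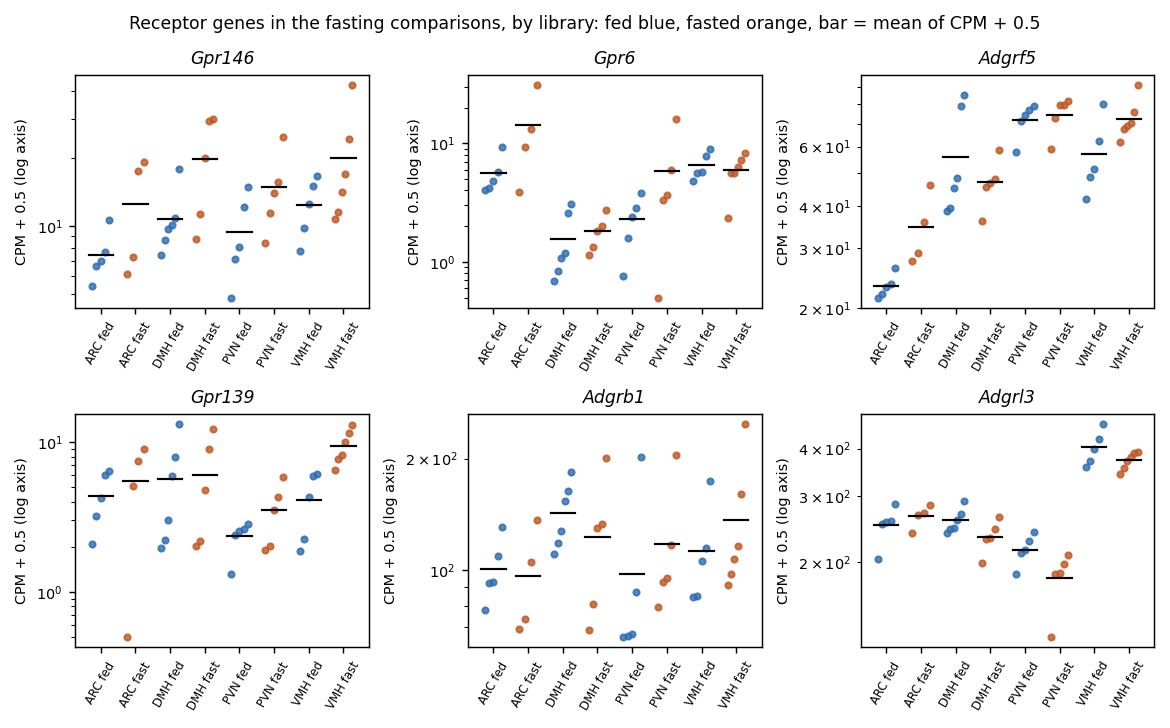
CPM + 0.5 on log axes for 6 members of the fasting comparisons in every library, by nucleus and nutritional state. Each point is 1 library, blue for fed and orange for fasted, and each bar is the group mean. Gpr146 has a higher fasted than fed mean in each nucleus with overlapping points, and the fed and fasted points are apart for Adgrf5 in ARC and Gpr139 in VMH.

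In ARC, the members with the smallest p were Gpr158 and Gpr165. Gpr158 was at 150, 166, 179, 182 and 199 CPM in fed and 195, 219, 219 and 261 CPM in fasted libraries, a difference of 0.35 ± 0.13 (adjusted p = 0.484). Gpr165 was at 228, 235, 240, 282 and 318 CPM in fed and 295, 296, 339 and 406 CPM in fasted libraries, a difference of 0.34 ± 0.13 (adjusted p = 0.522). In both genes a single fed library lay among or above the lower fasted ones, and neither passed the threshold.

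Gpr6 in ARC was at 3.53, 3.73, 4.29, 5.25 and 8.86 CPM in fed and 3.38, 8.85, 12.7 and 30.4 CPM in fasted libraries, a difference of 1.05 ± 0.46 (adjusted p = 0.574). The highest value was that of fasted mouse 86. Adgrf5 in ARC, named after its values were seen, was the 1 member whose fasted libraries (27.1, 28.6, 35.4 and 45.6 CPM) all lay above the fed ones (21, 21.6, 22.5, 23.0 and 25.7 CPM). Of all genes, 1.12% showed this pattern in that direction, and the Adgrf5 difference of 0.56 ± 0.24 did not pass the threshold (adjusted p = 0.574). The endothelial sum in ARC was 66.8 ± 9.24 CPM in fasted (SD, n = 4) and 85.1 ± 6.56 in fed libraries (n = 5), the opposite order to Adgrf5.

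In VMH, Gpr139, a receptor that responds to aromatic amino acids, had fed libraries at 1.38, 1.75, 3.78, 5.43 and 5.58 CPM and fasted ones from 6.0 to 12.4 CPM (median 8.61). The groups did not overlap, as for 0.25% of all genes in that direction, and the difference was 1.30 ± 0.44 (unadjusted p = 0.00752, adjusted p = 0.547, limma). Gpr17, a receptor of committed oligodendrocyte precursors, was at 13.9, 17.6, 18.1, 24.1 and 26.0 CPM in fed and from 21 to 49.3 CPM in fasted libraries (median 36.8), a difference of 0.79 ± 0.26 (adjusted p = 0.536). In ARC, DMH and PVN, Gpr139 differed by -0.15 ± 0.74, 0.18 ± 0.60 and 0.50 ± 0.53, and Gpr17 by -0.20 ± 0.34, -0.50 ± 0.32 and 0.28 ± 0.24.

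In PVN, Gpr101 and Adgrl3 had the smallest p, both with lower fasted values. Gpr101 was at 303, 326, 331, 337 and 449 CPM in fed and 245, 266, 272, 317 and 334 CPM in fasted libraries (-0.28 ± 0.10, adjusted p = 0.350). Adgrl3 was at 186, 211, 215, 227 and 240 CPM in fed and 126.7, 186, 187, 197 and 209 CPM in fasted libraries (-0.27 ± 0.11, adjusted p = 0.432). In both genes the lowest fasted library was that of mouse 86. Adgrb1 differed by 0.34 ± 0.14 in the same nucleus (adjusted p = 0.446), with PVN-D-Fed-111 at 202 CPM and PVN-D-Fast-86 at 205 CPM, both of batch 1.

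Of the genes that differed between nuclei, Gpr50, Gpr101, Gpr83 and Gpr12 were not called for fasting. In the mean over nuclei, Gpr50 differed by -0.03 ± 0.23, Gpr101 by -0.08 ± 0.06, Gpr83 by 0.05 ± 0.15 and Gpr12 by -0.14 ± 0.18. The difference of Gpr101 in PVN alone was larger, at -0.28. The nucleus-by-state test called 0 members and 0% of all genes at an adjusted p under 0.1 (limma F-test). At an unadjusted p under 0.05 it found 4 of the 62 members, Adgrb1, Gpr165 and Gpr17 among them, beside 5.56% of all genes.

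Among the ligands and binding partners, 4 of 19 were higher and 1 lower after fasting in the mean over nuclei, beside 1.52% and 1.66% of all genes. C1ql2 (0.90 ± 0.24, adjusted p = 0.034), Col4a2 (0.41 ± 0.13, adjusted p = 0.0926), Nrxn3 (0.20 ± 0.06, adjusted p = 0.0624) and Pcsk1n (0.20 ± 0.06, adjusted p = 0.0479) were higher, and Flrt2 was lower (-0.36 ± 0.09, adjusted p = 0.0229). None of these 5 calls held without the batch term (adjusted p from 0.214 to 0.885) or with 1 value per mouse (0.230 to 0.732), alternatives run on the partners after the data were seen, and their directions did not change. In PVN, Col4a1 (1.56 ± 0.29, adjusted p = 0.0356), a collagen bound by Adgrg6, and Nrxn3 (0.49 ± 0.11, adjusted p = 0.0665) were higher, beside 0.304% of all genes. None of the measured G protein alpha subunits, arrestins, receptor kinases or Adcy7 was called in a fasting comparison.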

How the data were processed

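RNA from 4 laser-captured nuclei of 12 mice was SPIA-amplified (Ovation RNA-Seq System V2) and sequenced single-end. According to the submitters' processing notes and the study's methods, reads were mapped to GRCm38 with TopHat2 2.0.11, with CASAVA 1.7, Cufflinks 2.2.1, edgeR and limma also named, and outlier libraries were left out, which can lower the spread. The read counter is not given in the sources used here. The authors deposited CPM per gene, scaled to each library's total. The table held 10127 genes and none with identifiers between ENSMUSG00000000861 and ENSMUSG00000028747, so CPM summed to 554896 to 689010. Symbols and coordinates came from GENCODE M21 (GRCm38) and named 9891 rows. Of the 43 samples, 41 matched a column. Another 2 columns had names that no label matched and were left out.

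Of the low values, 96.9% to 98.6% were whole multiples of 1 read (within 0.02), which gave the depth. The rest were not, so the reads were not taken as recovered and no count test was run. Amplification means that reads are not counts of separate molecules.

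Tests used log2(CPM + 0.5) in limma 3.58.1 (R 4.3.3; lmFit, eBayes with trend), 2-sided, with Benjamini-Hochberg adjustment over all genes tested and a threshold of 0.1. Fold changes of low genes are understated on this scale. Fasting within a nucleus was fitted with batch, on genes at 1 CPM or more in at least the number of libraries of the smaller group (in the other fits, of the smallest of the 8 groups). Fasting averaged over nuclei was fitted on 8 group means and batch with mouse as a random block (estimated correlation -0.003). Levels of nuclei, pairs and the nucleus-by-state F-test were fitted with mouse as a fixed block, where same-numbered libraries come from the same mouse. VMH of mouse 85 and DMH of mouse 92 were the only libraries of their mice and carry no weight there. The fits were also run on simulated counts with known changes and no mouse or batch effects. That run does not show how the fits handle libraries of the same mouse. Promoter windows came from RefSeq (GRCm38.p6).

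The members and gene lists were chosen with earlier results of these data known. Genes named were those past a threshold in fasting, per nucleus the 4 highest and 2 lowest calls (2 CPM or more on the higher side), the 2 smallest fasting p of each nucleus, the 6 highest levels per kb of exon, and the trio, latrophilin and BAI groups. Some genes that met this rule are not reported here. Others are marked as named after their values were seen or stand in counts. Alternatives were other pseudocounts, no filter, upper-quartile or quantile scaling, no batch, array weights, other blocks and each library left out. A fit with 1 value per mouse was added after seeing the data.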

Additional observations from a re-analysis of the deposited data

Results flagged for a closer look

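Of 176 groups of 4 to 6 libraries of the named members, 16 held a library far from the others by Dixon's test at the 95% level, where chance gives about 1 in 20. Of the 16, 7 were libraries of mouse D-Fed-111 and 4 of D-Fast-86, both of batch 1. The part of batch in these values was not tested.

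D-Fed-111 had the highest fed value of Gpr146 in DMH (17.4 CPM, others 6.96 to 10.4), of Gpr12 in ARC (21.5, others 5.40 to 9.99) and DMH (22.8, others 11.5 to 15.7), and of Gpr3 (25.8, others 1.90 to 5.37), Gpr151 (21.5, others 1.27 to 4.54) and Adgrb1 (202, others 65.4 to 86.9) in PVN. It had the lowest fed value of Gpr139 in PVN (0.82, others 1.90 to 2.34). D-Fast-86 had the highest fasted value of Gpr3 in ARC (11.9, others 0.56 to 2.15) and of Gpr17 in PVN (45.4, others 20.2 to 26.5). It had the lowest of Gpr101 in VMH (53.3, others 73.4 to 84.4), and of Adgrl3 (126.7, others 186 to 209) in PVN.

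D-Fast-311 stood highest for Adgrg6 in PVN (1.01 CPM, others 0 to 0.27) and Gpr22 in VMH (35.1, others 15.3 to 21.9). D-Fast-100 stood highest for Gpr151 in VMH (1.80, others at 0). D-Fed-308 stood highest for Gpr3 in ARC (5.18, others 0 to 0.32) and Gpr101 in PVN (449, others 303 to 337).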

How the results depend on the processing

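Of 288 values of 41 named results under other settings, 278 kept their direction and side of the threshold, 10 kept only their direction and 0 reversed. With each library left out in turn, 1403 of 1435 kept both, 32 kept only their direction and 0 reversed. With a pseudocount of 2, 3 members were called in DMH (6 with 0.5) and 7 in PVN (11 with 0.5), and Gpr179 in DMH, Gpr3, Adgrg2 and Adgrg6 in PVN, and Gpr3 and Gpr151 in VMH fell under the required size. Gpr151 in VMH also did so under quantile scaling (-0.90). For fasting averaged over nuclei, 0 members were called without batch and 0 with 1 value per mouse, an alternative chosen after seeing the data (1 in the fit described); leaving out a library gave 0 to 1. The cause of these losses was not tested. Leaving out a library gave 9 to 11 calls (ARC), 4 to 6 (DMH), 9 to 12 (PVN) and 11 to 15 (VMH), and 0 for fasting in any single nucleus. The Adgrg2 call in PVN was lost without PVN-D-Fast-86 (-0.85) or PVN-D-Fed-313 (-0.99), and the Gpr3 call there also without PVN-D-Fast-101 (1.23, adjusted p = 0.102).

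With no replicate block for the mouse, 1 member was called for fasting averaged over nuclei, the calls between nuclei were 9, 6, 10 and 14 in ARC, DMH, PVN and VMH, and the interaction gave 0. The block therefore changed no count by over 1.5 times. At the depth of these libraries, members under 2 CPM rest on few reads, and differences between them may not be detectable.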
